A study of Mus musculus with 8 samples.

Results

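The ATF4-CHOP arm of the stress response was followed through 10 genes: Atf4, Atf5, Ddit3, Trib3, Chac1, Ppp1r15a, Gdf15, Sesn2, Ddit4 and Nupr1. They were chosen by name for their place downstream of eIF2α phosphorylation, with earlier results of these data known. They were matched by symbol among the 55487 gene rows of the deposited table. All 10 were found, and all 10 were among the 11796 genes tested, whose mean TPM was 1 or more. TPM, the transcript unit of the table, divides the reads of a gene by its length and scales it to the library. Levels can thus be set side by side between genes of a library. Between libraries TPM are shares of a total and depend on the scaling, for which alternatives are given below. The table's columns summed to between 973190 and 977485 TPM in the LPS group and between 958918 and 962737 TPM in the UDCA group described below, and were not rescaled. The symbol Ddit3 stood on 2 rows, of which the one with the higher mean was used and the other was at 0 in all 8 libraries.

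The libraries came from J774A.1 cells, a mouse macrophage line. One group of 4 libraries was treated with LPS (lipopolysaccharide, a bacterial outer membrane component that activates macrophages through TLR4) at 1 μg/mL. The other group of 4, called LPS + UDCA, had the same LPS together with 1 mM UDCA (ursodeoxycholic acid, a secondary bile acid). Both groups were collected after 24 h, and the comparison asks how UDCA shifts the transcripts of macrophages that are also exposed to LPS. The labels give the treatments and the time, and the doses are from the study's methods. No library without LPS and none with UDCA alone was analysed here, so the level before LPS is unknown. The sources do not say whether the replicates were separate cultures on separate days, so p-values measure the spread between these libraries.

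When unfolded protein, amino acid shortage, haem shortage or viral RNA activates one of the kinases PERK, GCN2, HRI or PKR, phosphorylated eIF2α lowers general translation while the upstream reading frames of Atf4 mRNA allow more ATF4 protein to be made. ATF4 then drives transcription of Ddit3, which encodes CHOP, and the pair with other bZIP proteins drives genes for amino acid supply, redox balance, feedback dephosphorylation of eIF2α, restraint of mTORC1 and, if the stress goes on, cell death. In macrophages this arm is known to be engaged by bacterial products, lipid overload and nutrient loss. What was measured is mRNA, so neither ATF4 protein nor eIF2α phosphorylation was seen.

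The promoter stretches that hold the letters bound by these factors are shown first, because they mark which of the 10 genes carry a match close to the start and which do not. RefSeq promoters of 300 bases, from 250 before to 50 after the start on GRCm38.p6, were searched on both strands. The core of the C/EBP-ATF response element, written TGATGNAA, is the site at which ATF4 pairs with a C/EBP protein. It was found in 3.97% of 32851 promoters (4.51% of genes) and in 3 of the 10 genes, Chac1, Nupr1 and Trib3, each time on the opposite strand to the gene, so that it reads backwards and complemented below. A longer form, TGATGCAAT, was in 0.192% of promoters (0.222% of genes) and in Nupr1 alone among the 10, where it is the same site as the core. The cAMP response element TGACGTCA was in 1.79% of promoters (2.03% of genes) and in Ppp1r15a alone. The ER stress response element, which ATF6 reads, was in 0.119% of promoters (0.137% of genes) and in none of the 10. A match is a run of letters and not a measured site, and the absence of one says only that these 300 bases lack it.
The Chac1 stretch is chr2:119351023-119351082 on the plus strand, with the match 193 to 186 bases before the start. The Nupr1 stretch is chr7:126625547-126625606 on the minus strand, with the match 110 to 103 bases before the start. The Trib3 stretch is chr2:152344028-152344057 on the minus strand, with the match 15 to 22 bases after the RefSeq start, which is still upstream of the gene as drawn in GENCODE M21. The Ppp1r15a stretch is chr7:45526269-45526306 on the minus strand, with the match 12 to 5 bases before the start. Each is written 5′ to 3′ along the strand of its gene, with the matched letters in capitals.
Chac1: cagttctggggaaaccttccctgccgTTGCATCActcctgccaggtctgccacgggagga
Nupr1: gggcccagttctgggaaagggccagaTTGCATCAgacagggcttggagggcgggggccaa
Trib3: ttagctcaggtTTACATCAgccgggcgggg
Ppp1r15a: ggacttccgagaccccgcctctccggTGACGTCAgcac
The 3 genes with the core did not move alike between the groups: as given below, Trib3 rose past 2-fold, Nupr1 was lower and Chac1 was 1.09 times its LPS level with overlapping ranges.

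Transcripts of this arm were higher with LPS + UDCA, but unevenly. Atf5, Sesn2, Ddit4 and Trib3 rose by more than 2-fold. Atf4 itself, the transcript with the highest level of the 10, rose by 1.95-fold, Ppp1r15a by 1.76-fold and Ddit3 by 1.45-fold. Chac1 and Gdf15 stayed within overlapping ranges, and Nupr1 fell to 0.703 of its LPS level. The summed TPM of the 10 genes was between 1431 and 1449 in the LPS libraries and between 2456 and 2539 with LPS + UDCA.

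Counted by the study's thresholds, a change of 2-fold or more and a false discovery rate (FDR) under 0.05, 4 of the 10 genes rose and 0 fell. Over all genes tested, 8.71% rose and 8.44% fell by the same rule. The fit is not the study's own, and it called fewer genes in each direction than the study reported. With the FDR alone, 8 of the 10 were higher, 1 was lower and 1 did not pass, against 40.2% of all genes higher and 32.3% lower. All 4 LPS + UDCA libraries lay above all 4 LPS libraries for 7 genes and below them for 1, where 37% and 29.9% of all genes tested do so. The median log2 fold change, on the scale of log2(TPM + 1), was 0.89 over the 10 genes and 0.08 over all genes. These figures describe the 10 genes, chosen with earlier results of these data known, beside the rest and are not a test of the list. In a bulk sample, more cells that hold a transcript and more transcript per cell cannot be told apart.

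**Figure D1:**
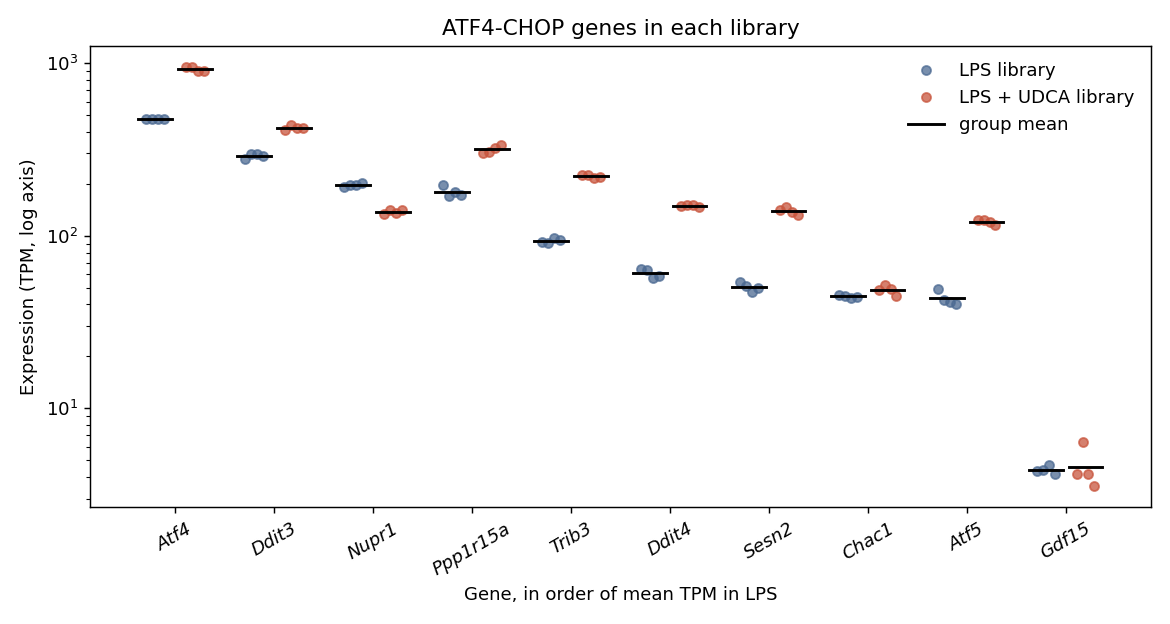
Expression of the 10 genes in each library, in TPM on a log axis, with LPS libraries in blue, LPS + UDCA libraries in red and black bars for the group means. The 4 points of a group lie close together for every gene but Gdf15, whose LPS + UDCA points run from 3.54 to 6.38 TPM, and the groups overlap for Chac1 and Gdf15 alone among the 10.

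ATF4, the transcription factor at the head of the arm, is encoded at chr15:80255184-80257541 on the plus strand (GRCm38, GENCODE M21, as for the positions that follow). Atf4 was at 472, 477, 475 and 476 TPM in the LPS libraries. With LPS + UDCA it was at 953, 950, 904 and 897 TPM. Every LPS + UDCA library was thus far above every LPS library, and the LPS libraries differed from each other by a few TPM. The group means were 475 ± 2.09 and 926 ± 29.6 TPM (SD, n = 4). The log2 fold change was 0.96 (SE 0.029, 95% CI 0.90 to 1.03, limma adjusted p = 1.2e-08), so that the interval spans the 2-fold threshold and Atf4 was not among the genes called. With quantile normalization the estimate was 1.08 and Atf4 was called.

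ATF5, a close relative of ATF4 that is also translated through upstream reading frames and is known for relaying mitochondrial stress, had one of the highest log2 fold changes of the 10 genes, beside Sesn2 (chr7:44812256-44816658, minus strand). Atf5 was at 49.2, 42.3, 41.6 and 40.3 TPM in the LPS libraries and at 123, 124, 119.6 and 115 TPM under LPS + UDCA. The groups were far apart, with LPS replicate 1 the highest of its group by several TPM. The means were 43.3 ± 4.00 and 120.5 ± 3.93 TPM (SD, n = 4), with a log2 fold change of 1.46 (SE 0.063, 95% CI 1.32 to 1.6, limma adjusted p = 8.4e-08). Among all 11796 genes, 350 had a higher log2 fold change. Atf5 overlaps Nup62 and Il4i1, both on the opposite strand, and 2.76% of its 31-base words occur in other genes, so reads of these neighbours could be shared where strand was not used in counting.

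CHOP, the product of Ddit3, is a C/EBP family protein known for its part in the death of cells under prolonged ER stress (chr10:127290774-127296288, plus strand). Ddit3 was at 278, 298, 296 and 290 TPM under LPS and at 409, 437, 424 and 419 TPM in the LPS + UDCA libraries. The lowest LPS + UDCA library was above the highest LPS library by more than the whole range within either group. The means were 290.5 ± 8.93 and 422 ± 11.7 TPM (SD, n = 4) and the log2 fold change was 0.54 (SE 0.034, 95% CI 0.46 to 0.62, limma adjusted p = 8.4e-07). Ddit3 thus rose, but its interval lay below 2-fold. Its annotation overlaps Mars and Gm4189 on the opposite strand and a second Ddit3 entry on the same strand. Of its 31-base words, 6.78% are shared, the largest share of the 10 genes, so its level is less certain in that respect.

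TRIB3, a pseudokinase induced by ATF4 with CHOP that binds AKT and in turn restrains ATF4, rose with small spread in both groups (chr2:152337422-152344032, minus strand). Trib3 was at 92.7, 91.0, 96.9 and 94.5 TPM in the LPS libraries and at 226, 224, 217 and 219 TPM under LPS + UDCA. The groups did not overlap. The means were 93.8 ± 2.54 and 221 ± 4.16 TPM (SD, n = 4), and the log2 fold change was 1.23 (SE 0.033, 95% CI 1.16 to 1.30, limma adjusted p = 5.1e-09), with 610 genes higher.

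CHAC1 degrades glutathione and is commonly read as a marker of the ATF4-ATF3-CHOP cascade (chr2:119351229-119354381, plus strand). Chac1 was at 45.7, 45.0, 43.4 and 44.2 TPM under LPS and at 48.5, 52.1, 49.1 and 45.1 TPM in the LPS + UDCA libraries. LPS + UDCA replicate 4 lay among the LPS libraries, and the other LPS + UDCA libraries were above them. The log2 fold change was 0.12 (SE 0.049, 95% CI 0.012 to 0.23). Its limma adjusted p was 0.047, which rose to 0.05 or more in 11 of 15 alternative analyses, up to 0.76 with median-of-ratios scaling. The exact 2-sided permutation test over the libraries gave p = 0.057. A difference in Chac1 was therefore not firmly separated from the spread between libraries, and the interval leaves no room for a change of 2-fold.

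PPP1R15A, or GADD34, carries the phosphatase PP1 to eIF2α and so closes the feedback loop of the pathway (chr7:45522916-45526268, minus strand). Ppp1r15a was at 196, 170.5, 179 and 172 TPM in the LPS libraries and at 303, 306, 321 and 336 TPM under LPS + UDCA. The groups did not overlap, with LPS replicate 1 the highest of its group. The log2 fold change was 0.82 (SE 0.052, 95% CI 0.70 to 0.93, limma adjusted p = 9.4e-07), from means of 179 ± 11.5 and 317 ± 15.2 TPM (SD, n = 4). It overlaps Tulp2 on the opposite strand.

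The members that tie the arm to mTORC1, the kinase complex that promotes growth when nutrients are plentiful, both rose past 2-fold. Sestrin 2, encoded by Sesn2, senses leucine and holds back mTORC1 through GATOR2 (chr4:132492032-132510501, minus strand). Sesn2 was at 54.1, 51.5, 47.3 and 50.1 TPM under LPS and at 142, 147, 137 and 132 TPM in the LPS + UDCA libraries. The log2 fold change of Sesn2 was 1.44 (SE 0.051, 95% CI 1.33 to 1.55, limma adjusted p = 2.8e-08), with 362 genes higher. REDD1, encoded by Ddit4, lowers mTORC1 activity through TSC2 (chr10:59949669-59951834, minus strand). Ddit4 was at 64.6, 63.5, 57.3 and 58.7 TPM in the LPS libraries and at 148, 152, 151 and 147 TPM under LPS + UDCA. The log2 fold change of Ddit4 was 1.28 (SE 0.045, 95% CI 1.18 to 1.38, limma adjusted p = 2.7e-08), with 552 genes higher. For both genes the lowest LPS + UDCA library stood above the highest LPS library by more than that library's own level. The gene model Gm12981 overlaps Sesn2 on the same strand.

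GDF15, a secreted TGF-β family cytokine that is often measured in serum as a sign of this response, was the lowest of the 10 genes in both groups (chr8:70629393-70632456, minus strand). Gdf15 was at 4.33, 4.40, 4.72 and 4.19 TPM under LPS and at 4.19, 6.38, 4.14 and 3.54 TPM in the LPS + UDCA libraries. One library, LPS + UDCA replicate 2, was above all others, while the other 3 of its group were at or below the lowest LPS library. The log2 fold change was 0.02 (SE 0.14, 95% CI −0.31 to 0.34, limma adjusted p = 0.92; exact permutation p = 1), and without LPS + UDCA replicate 2 it was −0.13. No difference was detectable, and the interval does not reach a 2-fold change in either direction.

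NUPR1, a small chromatin protein induced by many stresses and known as a target of ATF4, was the only one of the 10 genes that fell (chr7:126623249-126630861, minus strand). Nupr1 was at 192, 196, 197 and 201 TPM in the LPS libraries and at 134, 141, 136 and 141 TPM under LPS + UDCA. All LPS + UDCA libraries were below all LPS libraries. The means were 196.5 ± 3.72 and 138 ± 3.60 TPM (SD, n = 4), and the log2 fold change was −0.51 (SE 0.032, 95% CI −0.58 to −0.43, limma adjusted p = 8.8e-07). It fell by less than the 2-fold threshold. Its 31-base words were shared with other genes at 1.37%.

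For the 8 genes whose groups did not overlap, the exact permutation test over the 70 arrangements of the libraries gave p = 0.029, the smallest that 4 against 4 can give.

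**Figure D2:**
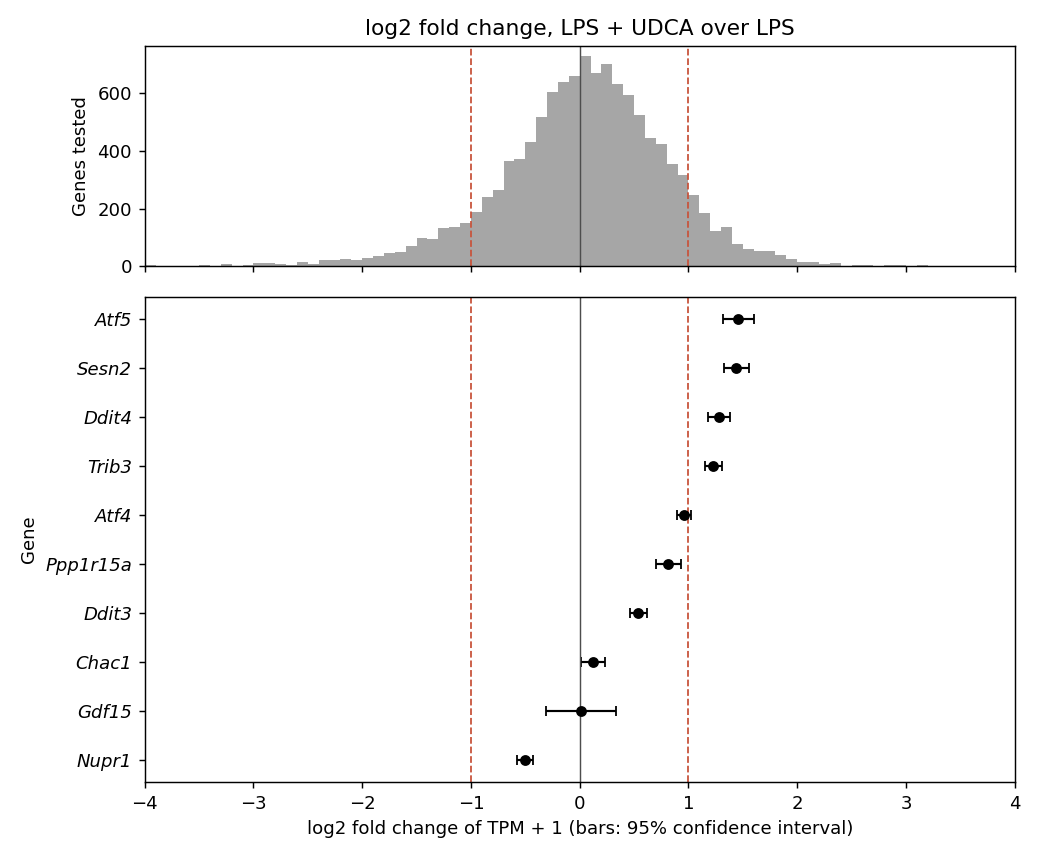
The upper panel counts the 11796 tested genes by log2 fold change (values beyond ±4 are stacked at the edges), and the lower panel gives the 10 genes with 95% confidence intervals. Dashed lines mark a 2-fold change. Atf5, Sesn2, Ddit4 and Trib3 lie wholly above the upper line, Atf4 touches it at 0.96, and Nupr1 at −0.51 is the only gene of the 10 with its interval below 0.

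The order of the levels changed in its lower part. With LPS it ran Atf4, Ddit3, Nupr1, Ppp1r15a, Trib3, Ddit4, Sesn2, Chac1, Atf5 and Gdf15. The ranges overlapped between the neighbours Nupr1 and Ppp1r15a and between Chac1 and Atf5, and not between the others. With LPS + UDCA the order was Atf4, Ddit3, Ppp1r15a, Trib3, Ddit4, Sesn2, Nupr1, Atf5, Chac1 and Gdf15, and only Sesn2 and Nupr1, at 139 and 138 TPM, overlapped. Atf4 and Ddit3 held the first 2 places and Gdf15 the last in both groups, while Nupr1 moved from place 3 to place 7. In LPS libraries Atf5 was near Chac1, at 43.3 and 44.6 TPM, and with LPS + UDCA it was at 120.5 TPM against 48.7 TPM for Chac1.

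The spread within a group was small for most members. The coefficient of variation ran from 0.441% for Atf4 to 9.24% for Atf5 with LPS, and from 1.40% for Ddit4 to 27.3% for Gdf15 with LPS + UDCA. The place of a library within its group varied by gene. LPS replicate 1 was the highest of its group for 5 genes, Atf5, Chac1, Ppp1r15a, Sesn2 and Ddit4, and the lowest for Atf4, Ddit3 and Nupr1. LPS + UDCA replicate 2 was the highest of its group for 6 genes and replicate 4 the lowest for 6.

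Set against Atf4 in the same library, 8 members separated into those that gained on it and those that lost. Of 8 ratios to Atf4, 4 were higher with LPS + UDCA in every library, 3 were lower in every library, and 1 overlapped. The same count was not made over all genes, so it does not set these members apart from other genes. On TPM alone, 37% of all genes tested lay wholly above and 29.9% wholly below. Atf4 itself had a higher log2 fold change than 89.6% of all genes tested, so a gene need not fall for its ratio to be lower. The ratio Atf5/Atf4 went from 0.0912 ± 0.0088 to 0.130 ± 0.0018 (SD, n = 4). Sesn2/Atf4 went from 0.107 ± 0.0063 to 0.15 ± 0.0031. Ddit4/Atf4 and Trib3/Atf4 were 1.26 and 1.21 times their LPS values. These are ratios of TPM, so a common scaling of a library cancels in them.

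Ddit3/Atf4 went the other way, from 0.611 ± 0.016 to 0.456 ± 0.018 (SD, n = 4), so that CHOP transcripts were a smaller fraction of Atf4 transcripts with LPS + UDCA. Gdf15/Atf4 was 0.529 times its LPS value, and Nupr1/Atf4 was 0.361 times. Gdf15 itself showed no detectable difference (log2 fold change 0.02), so its lower ratio goes with the rise of Atf4. The exact 2-sided permutation test gave p = 0.029 for each of these 7 ratios, a value that follows from their lack of overlap. For Ppp1r15a/Atf4, at 0.378 and 0.342, the groups overlapped and p was 0.11, with a difference of −0.14 (SE 0.074) on the log2 scale. The gene for the phosphatase subunit was the one of these 8 whose ratio to Atf4 was not separated from the library spread.

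**Figure D3:**
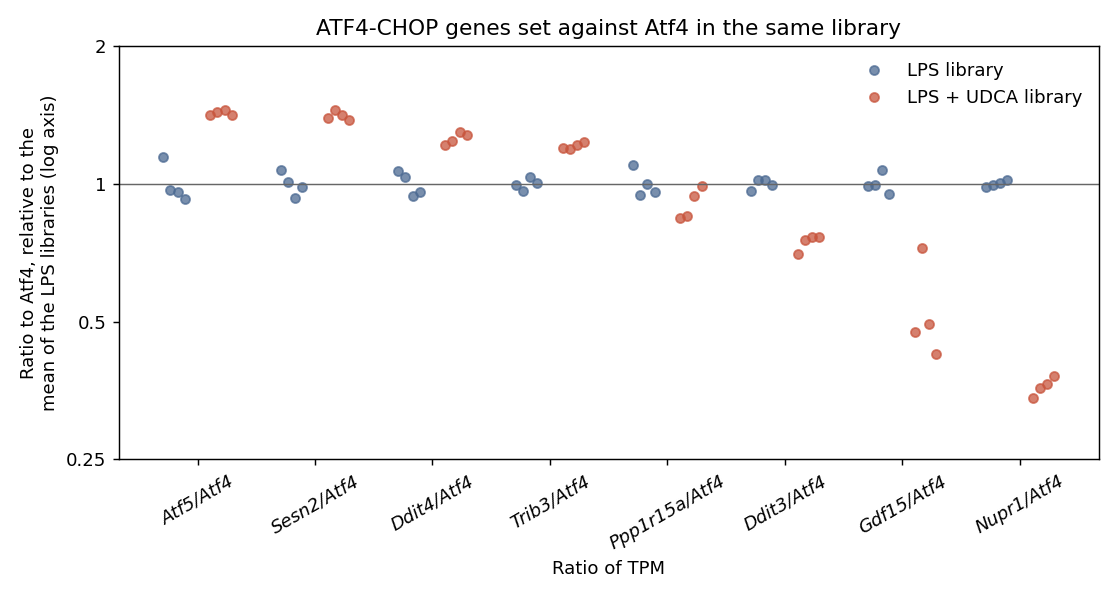
Ratio of each of 8 genes to Atf4 in the same library, divided by the mean ratio of the LPS libraries and drawn on a log axis, with LPS libraries in blue and LPS + UDCA libraries in red. Atf5, Sesn2, Ddit4 and Trib3 lie above 1 with LPS + UDCA, Ppp1r15a overlaps, and Ddit3, Gdf15 and Nupr1 lie below, down to 0.361 for Nupr1.

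Ratios between other members also differed between the groups in some cases and not in others. Ddit3/Trib3 went from 3.10 ± 0.12 to 1.91 ± 0.066 and Chac1/Ddit3 from 0.154 ± 0.0075 to 0.115 ± 0.0053, while Atf5/Ddit3 rose from 0.149 ± 0.018 to 0.285 ± 0.010 (SD, n = 4, exact permutation p = 0.029 each). Trib3/Sesn2 fell from 1.85 ± 0.15 to 1.59 ± 0.052 (exact permutation p = 0.029 for n = 4). Atf5/Sesn2 was 0.853 ± 0.049 with LPS and 0.865 ± 0.013 with LPS + UDCA (exact permutation p = 0.69 for n = 4), and the difference of the log2 ratios was 0.02 with an SE of 0.042. Trib3/Ddit4 was 1.54 ± 0.13 and 1.48 ± 0.034 (exact permutation p = 0.46 for n = 4), a log2 difference of −0.05 with an SE of 0.062. In all, 22 ratios were compared, those to relatives below included. Their p-values were not adjusted for that number, and a p of 0.029 in the permutation test restates that the groups did not overlap.

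For Trib3 and Nupr1, a relative in sequence moved the opposite way. Trib1, which directs C/EBP proteins to degradation, fell from 7.0 ± 0.58 to 1.03 ± 0.27 TPM (log2 fold change −1.99, SE 0.12) while Trib3 rose, and the ratio Trib3/Trib1 went from 13.5 to 225. Nupr1l, the relative of Nupr1, rose from 1.03 ± 0.48 to 6.18 ± 2.35 TPM (1.80, SE 0.24) while Nupr1 fell, and Nupr1/Nupr1l went from 238 to 24.3. Both relatives are at low levels, and with a minimum mean of 5 TPM neither was tested.

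Sesn1, usually counted as a p53 target, was at 4.97 ± 0.40 and 5.71 ± 0.40 TPM (log2 fold change 0.17, SE 0.082, limma adjusted p = 0.091), and Sesn2/Sesn1 went from 10.2 to 24.6. Ppp1r15b, the constitutive partner of PP1 for eIF2α, rose with a log2 fold change of 0.55 (SE 0.054), less than Ppp1r15a, as Ppp1r15a/Ppp1r15b went from 6.31 to 7.50. Chac2 was higher at 5.38 against 2.91 TPM (0.73, SE 0.14), a larger estimate than that of Chac1, and Chac1/Chac2 went from 16.2 to 9.05. Chac2 too was under the minimum mean of 5 TPM. Its LPS replicate 4 was at 4.22 TPM, and the other LPS libraries were at 2.27 to 2.62 TPM. Atf3, a stress-induced bZIP factor that works beside ATF4 and CHOP, rose with a log2 fold change of 0.39 (SE 0.037), and Atf5/Atf3 went from 0.248 to 0.527. The exact permutation test gave p = 0.029 for each of these ratios. Trib2, Sesn3 and Ddit4l were listed at 0 in every library.

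**Figure D4:**
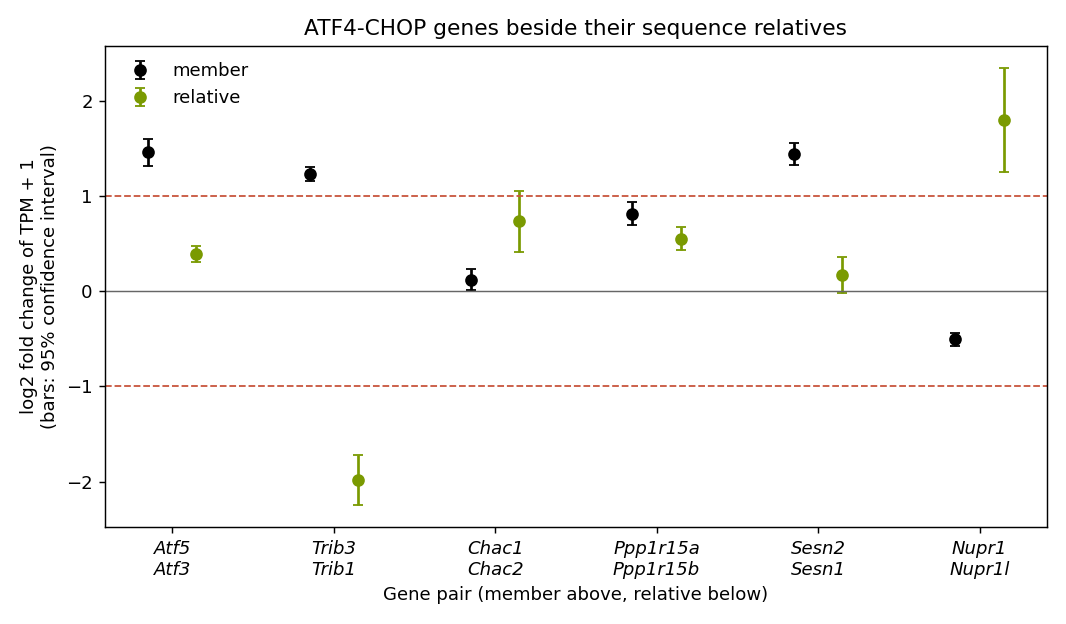
Log2 fold change of 6 members (black) and of a relative of each (green) with 95% confidence intervals, and dashed lines at a 2-fold change. Atf3 is set beside Atf5 as another bZIP factor, and sequences were not compared. Trib3 and Trib1 lie on opposite sides of 0 at 1.23 and −1.99, as do Nupr1 and Nupr1l at −0.51 and 1.80.

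No difference was detected in the transcripts of the 4 eIF2α kinases that feed the arm. Their means were between 6.62 and 17.1 TPM, with log2 fold changes of 0.06 for Eif2ak1 (HRI), −0.07 for Eif2ak2 (PKR), −0.05 for Eif2ak3 (PERK) and 0.09 for Eif2ak4 (GCN2), and none passed the FDR. Their standard errors ran from 0.051 to 0.13. Of 18 genes for the kinases, eIF2, its exchange factor eIF2B, PP1 subunits and regulators of the kinases, 1 rose past both thresholds and 0 fell, or 2 rose without LPS replicate 1, LPS + UDCA replicate 1 or LPS + UDCA replicate 2 and with quantile normalization. The riser was the regulator Impact, an inhibitor of GCN2, at 16.7 ± 3.41 and 63.7 ± 4.59 TPM (1.89, SE 0.12). Here and for each list that follows, 8.71% of all genes tested rose and 8.44% fell past both thresholds.

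The bZIP proteins with which ATF4 and CHOP can pair split in direction. Of 20 tested, 4 rose and 5 fell past both thresholds, and with median-of-ratios scaling 1 rose, Cebpg, and 5 fell. Cebpg, a partner of ATF4 at amino acid genes, rose from 16.4 ± 1.26 to 39.5 ± 2.54 TPM (log2 fold change 1.22, SE 0.068), and Ddit3/Cebpg went from 17.9 to 10.7. Fos fell from 23.6 ± 2.28 to 5.20 ± 1.16 TPM (−2.0, SE 0.13). Cebpb fell from 113 ± 49.1 to 44.4 ± 8.33 TPM (−1.24, SE 0.30), with LPS libraries spread from 60.1 to 161 TPM, and Ddit3/Cebpb went from 3.02 to 9.75. So CHOP transcripts were less abundant against Cebpg and more abundant against Cebpb with LPS + UDCA (exact permutation p = 0.029 for both).

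The wider programmes of ATF4 had lower medians than the 10 genes. All of these lists were chosen with earlier results of these data known. Among 20 amino acid supply genes, 2 rose and 1 fell, with a median log2 fold change of 0.0008, and with median-of-ratios scaling 1 rose. Slc6a9, a glycine transporter, rose from 23.9 ± 1.73 to 61.6 ± 0.95 TPM (1.33, SE 0.054), while Psat1, an enzyme of serine synthesis, fell from 268 ± 5.22 to 117.5 ± 3.24 TPM (−1.18, SE 0.032). Among 12 tRNA synthetases and the tRNA exporter Xpot, 1 rose and 0 fell, with a median of 0.26. The riser was Eprs at 1.10 (SE 0.089), which was just under 2-fold with median-of-ratios scaling.

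Among 23 other genes known as targets of ATF4 or CHOP, 4 rose, 1 fell and the median was 0.34. Sqstm1, the autophagy receptor p62, rose from 4044 ± 43.5 to 10600.0 ± 112 TPM (1.39, SE 0.021), and Cebpb was the one that fell. These median values lie above and below the 0.08 of all genes, and no list was tested as a set.

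The other arms of the unfolded protein response were counted in the same way. Over all genes tested, 8.71% rose and 8.44% fell past both thresholds, and 40.2% were higher and 32.3% lower by FDR alone. Of 27 genes of the IRE1-XBP1 and ATF6 arms, 3 rose past both thresholds and 0 fell, 21 were higher and 2 lower by FDR alone, and the median was 0.64. Hspa5, the ER chaperone BiP, rose from 831 ± 47.5 to 2790.0 ± 212.5 TPM (1.74, SE 0.059), a larger estimate than that of any of the 10 genes. By FDR alone, 8 of the 20 amino acid genes were higher and 9 lower. For the 13 synthetases and Xpot the counts were 9 and 1, for the 23 other targets 14 and 4. For the 20 bZIP partners they were 8 and 11. Among the targets counted below, they were 15 and 3 of 19 for p53, 7 and 5 of 16 for HIF, and 12 and 2 of 16 for NRF2. Of 27 genes that feed mTORC1, 1 rose and 0 fell, at a median of 0.25, or 1 fell with a pseudocount of 0.1, with median-of-ratios scaling and without LPS replicate 2 or LPS replicate 4. The riser was Fnip1, a folliculin partner, at 3.20 ± 0.55 and 10.7 ± 2.02 TPM (1.47, SE 0.14).

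Several members answer to other regulators too, so genes of those regulators were counted beside them. The shares over all genes tested were again 8.71% rising and 8.44% falling. For p53, which can induce Sesn2, 5 of 19 target genes rose and 1 fell, with a median of 0.42, and with median-of-ratios scaling 2 rose. Trp53inp1 had the highest value at 1.87 (SE 0.10) and Pidd1 the lowest at −1.34 (SE 0.095). For HIF, which can induce Ddit4, 3 of 16 rose and 3 fell at a median of 0.11, from Adm at 1.35 (SE 0.13) to Ankrd37 at −1.54 (SE 0.15).

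For NRF2, which can work with ATF4, 6 of 16 rose and 0 fell at a median of 0.75, with Srxn1 at 2.48 (SE 0.048). Of 13 mitochondrial stress genes apart from Atf5, 1 rose and 0 fell. It was Hspd1 at 1.03 (SE 0.074), which was under 2-fold with median-of-ratios scaling and without LPS replicate 2, LPS replicate 3 or LPS + UDCA replicate 4. Of 9 GADD and growth arrest genes apart from Ddit3 and Ppp1r15a, 1 rose and 0 fell, namely Gadd45g at 1.21 (SE 0.11), and another rose without LPS + UDCA replicate 3. The part of each regulator in the values of the members was not tested.

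**Figure D5:**
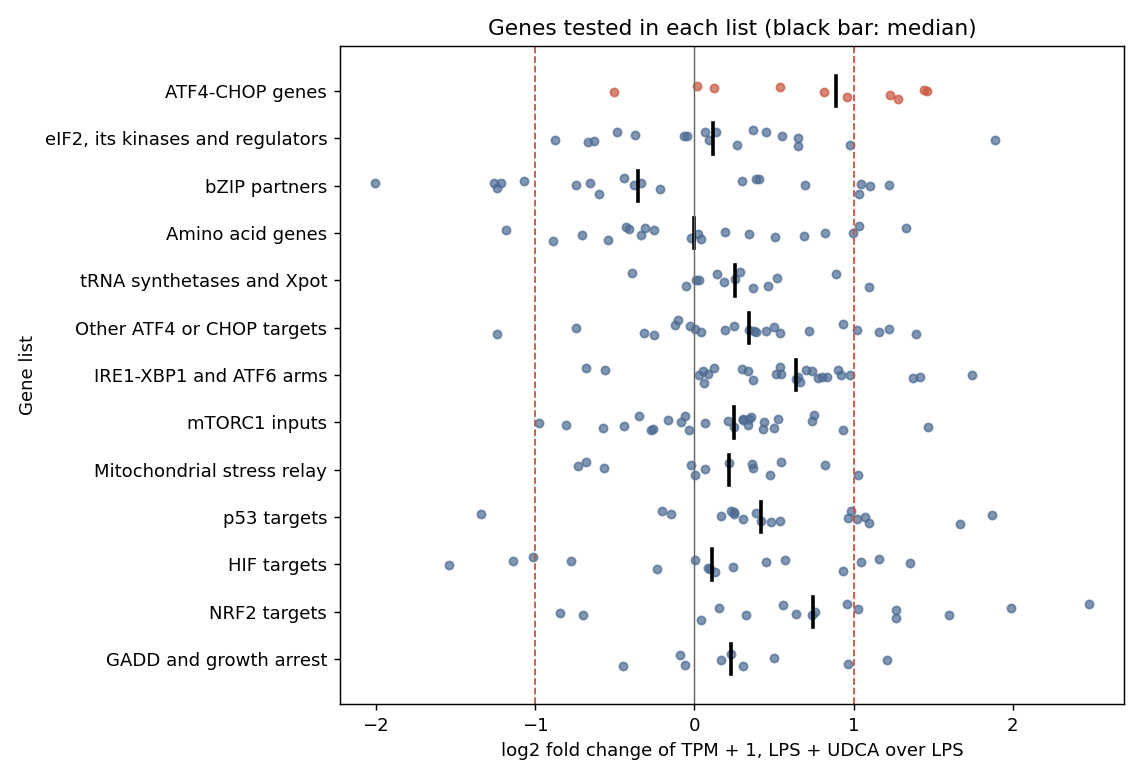
Log2 fold change of each tested gene in the 10 ATF4-CHOP genes (red) and in 12 lists of related genes without those 10 (blue), with black bars for medians and dashed lines at a 2-fold change. The 10 genes have a median of 0.89, the IRE1-XBP1 and ATF6 list 0.64 and the NRF2 list 0.75, while the amino acid genes centre on 0.

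The genes whose profile over the 8 libraries was nearest to each member were taken from the 7072 genes that averaged 10 TPM or more, by the root mean square difference of log2(TPM + 1) after subtraction of the LPS mean. With 2 groups that lie far apart, this measure mostly finds genes with a like fold change. Atf5 and Sesn2 were each among the other's nearest 2, at 0.053. Atf5 was otherwise nearest to Ogt, and Sesn2 to Cyb5r1. The nearest pairs were Sccpdh and Mrpl24 for Atf4, Thyn1 and Bap1 for Ddit3, Rab11fip1 and Tex264 for Trib3, Colgalt1 and Scly for Chac1, and Vwa5a and Hsp90ab1 for Ppp1r15a. For the remaining members they were Gmfg and Mcat for Gdf15, Abcc1 for Ddit4, and Ralb and Cox17 for Nupr1. The nearest difference was smallest for Nupr1, at 0.019 to Ralb, and largest for Gdf15, at 0.066 to Gmfg.

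Other values of the whole series, set beside these results, were as follows. Of 12 macrophage markers, 10 had a mean of at least 1 TPM. The summed level of the markers ran from 4250 to 4484 TPM in the LPS libraries and from 2082 to 2340 TPM in the others. Much of that drop was Lyz2 alone, at group means of 1988 and 435.5 TPM. By FDR alone, 4 markers were higher and 6 lower, against 40.2% and 32.3% of all genes tested. Of the 10 tested, 2 rose and 5 fell, from Fcgr1 at 1.48 (SE 0.061) to Itgam at −2.91 (SE 0.078), and Mertk was at 0 throughout. Of 16 markers of other cell types, 0 reached a mean of 1 TPM, with sums of 0.83 to 1.05 TPM and 0.04 to 0.50 TPM. The part of the shift in macrophage markers in the values of the 10 genes was not tested. TPM keeps no read depth, so the depth behind each value is unknown.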

How the data were processed

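J774A.1 libraries were made with an Illumina TruSeq RNA kit and sequenced on a HiSeq instrument. The authors deposited TPM for each gene and library. The submitters' processing notes name Bowtie 0.12.2 and mm10 (GRCm38), and the quantification program and its use of strand are not given in the sources used here. Libraries were grouped by the treatment in the labels, and the libraries labelled Trt are LPS + UDCA. Log2(TPM + 1) of genes averaging 1 TPM or more was fitted with limma 3.58.1 in R 4.3.3 (lmFit, eBayes with trend), and p-values were adjusted by Benjamini-Hochberg over all 11796 genes. A call needed a change of 2-fold or more and an FDR under 0.05. Single values and ratios were compared by exact 2-sided permutation of the libraries. No count test was run, as TPM are not counts. The procedure was tested on simulated data. The members and gene lists were chosen with earlier results of these data known. All members, all relatives, the kinases, the highest and lowest called gene of each list and the 2 nearest profiles per member were named. Promoters and positions were from RefSeq and GENCODE M21, which held 55141 of 55487 identifiers. Proteins were not compared. A ratio and a nearest profile are not reported here. Alternatives covered the pseudocount, the filter, the scaling, the trend, the replicate block, the fold minimum, the motif and each library left out.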

Additional observations from a re-analysis of the deposited data

Results flagged for a closer look

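Atf3, the bZIP relative described beside Atf5, was at 168.2 TPM in LPS replicate 3, with the other LPS libraries at 176, 177.6 and 177.7 TPM. The value was flagged by Dixon's criterion at the 95% level (gap over range 0.84, 4 libraries), although the coefficient of variation of the group was only 2.60%. It was the single such case in 40 groups examined, where chance gives about 2.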

How the results depend on the processing

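With no fold change minimum, 8 of the 10 genes were higher, Chac1 included, and 1 lower, in place of 4 and 0. Over all genes tested, 40.2% were higher and 32.3% lower by that rule. The median log2 fold change of the 10 genes, 0.89, was 0.96 with a minimum mean of 5 TPM (Gdf15 then leaves the test), 0.78 with median-of-ratios scaling, 0.98 with quantile normalization, and 0.88 to 0.91 with each library left out. With quantile normalization Atf4 joined the genes called. Gdf15, at 0.02, turned to −0.073 with median-of-ratios scaling, −0.090 with quantile normalization, −0.0034 without LPS replicate 4 and −0.13 without LPS + UDCA replicate 2 (range −0.13 to 0.11 with a library left out), and passed no test. Chac1 ran from 0.02 to 0.16 with an adjusted p of 0.05 or more in 11 of 15 alternatives. The other 8 genes kept their direction in the alternatives run. Over all genes, 1028 rose and 995 fell, against 810 and 1167 with median-of-ratios scaling and 1444 and 1232 with a pseudocount of 0.1. The shared replicate numbers gave deviations correlated at −0.035 to 0.15 between same-numbered libraries (mean 0.088, n = 4 pairs). Between different-numbered libraries the range was −0.14 to 0.16 (mean −0.029, n = 12 pairs). The ranges overlap, and the libraries were not taken as pairs, though pairing is not excluded. With a replicate block the median stayed 0.89, 4 members rose, 0 fell, and 1034 genes rose and 1000.0 fell. The longer response element left 1 gene with a match in place of 3. TPM gives no depth, so counting error at low levels such as Gdf15 is unknown.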
